A study of Mus musculus with 16 samples.

Results

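Whole-brain RNA libraries from 16 mice were divided by a single transcript, Gabra6, which encodes a GABA-A receptor subunit that the adult mouse brain makes almost only in cerebellar granule neurons. Libraries with Gabra6 under 1 CPM (a read count scaled to the library's gene total, the usual CPM) formed one set of 8, and libraries at 1 CPM or more formed the other set of 8, out of 16 in all. The mice were C57BL/6, described as male, with 1 library per mouse. Dams received lipopolysaccharide (LPS, a bacterial cell-wall component that activates innate immunity) or saline intraperitoneally on gestation day 16, offspring received either agent on postnatal day 30, and whole brains were taken on postnatal day 32. Group names give the dam's injection before the offspring's, an order that is a reading of the labels, and each group held 4 mice. Saline-saline mice never met LPS, LPS-saline mice met it before birth, saline-LPS mice as adolescents, and LPS-LPS mice at both times. Litters are not given, so p-values measure only the spread between these mice. No injection or genotype defines the division, which was made from the measured Gabra6 values and cuts across the treatments. The question put to the data is which transcripts accompany cerebellar RNA in a whole-brain sample and which are lower where it is present.

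The cerebellum lies behind the forebrain and midbrain and sits on the brainstem. Its cortex holds very many small granule neurons, which receive mossy fibre input and excite Purkinje cells through parallel fibres. Purkinje cells are the sole output of that cortex, and Bergmann glia, a form of astrocyte, surround their dendrites. Because sequencing depth is shared by all transcripts of a library, any tissue that adds transcripts of its own lowers the share left for those of the rest.

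The promoters of granule-cell marker genes are shown because these genes moved together across the libraries. RefSeq sequences of GRCm38.p6 were matched for 3 of the 4 label markers (Gabra6, Cbln3, Fat2 and En2), and 250 bases upstream of each start are printed 5′ to 3′ on the gene's own strand, which is the minus strand for each. Capitals mark matches to TTGGCA or its reverse complement TGCCAA, a core recognised by nuclear factor I (NFI), a factor known to act on Gabra6 in maturing granule neurons.
Gabra6, chr11:42321073-42321322: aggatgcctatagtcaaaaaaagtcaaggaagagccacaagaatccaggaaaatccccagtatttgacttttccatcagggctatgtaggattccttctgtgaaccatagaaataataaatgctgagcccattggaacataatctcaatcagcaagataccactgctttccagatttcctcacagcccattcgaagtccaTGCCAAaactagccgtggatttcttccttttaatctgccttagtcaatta
Cbln3, chr14:55884257-55884506: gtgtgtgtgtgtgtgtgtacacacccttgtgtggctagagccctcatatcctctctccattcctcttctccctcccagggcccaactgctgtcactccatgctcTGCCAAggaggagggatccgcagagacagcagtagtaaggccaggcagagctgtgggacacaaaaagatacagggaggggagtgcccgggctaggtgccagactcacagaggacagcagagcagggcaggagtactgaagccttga
Fat2, chr11:55312258-55312507: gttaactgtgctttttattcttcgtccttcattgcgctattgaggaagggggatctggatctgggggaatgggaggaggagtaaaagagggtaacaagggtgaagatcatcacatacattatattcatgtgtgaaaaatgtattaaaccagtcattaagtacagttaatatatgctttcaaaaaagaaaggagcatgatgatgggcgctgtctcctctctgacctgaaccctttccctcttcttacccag
Counted from the RefSeq starts, the core stood 50 bases upstream for Gabra6 and 146 bases upstream for Cbln3, and the Fat2 window held none. The GENCODE models used for names and positions start elsewhere for 2 of the genes: the Cbln3 model starts at 55884392, inside the printed window, and the Fat2 model at 55336564, so that the whole Fat2 window lies within it. Among 32851 promoters of the same length, 12.28% held it on either strand. The E-box CAGATG, searched on both strands, was found in none of the 3 windows and in 14.44% of all. A match is a run of letters and not a shown binding site.

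Gabra6 (chromosome 11, 42306437 to 42321072, GRCm38) chose the sets, and its values are a description. In saline-saline it was at 0.133, 0.0602, 0.275 and 44.7 CPM in replicates 1 to 4. In LPS-saline the values were 0.0672, 0.104, 17.1 and 53.0 CPM. In saline-LPS they were 0, 0.0373, 71.3 and 19.7 CPM, and in LPS-LPS 2.47, 0.0651, 17.0 and 30.2 CPM. The highest library under the threshold, saline-saline 3, was at 0.275 CPM and the lowest above it, LPS-LPS 1, at 2.47 CPM. Raw counts ran from 0 to 10 in the low set and from 79 to 2168 in the high set. Of the 4 libraries in each group, saline-saline had 1 high library, LPS-saline had 2, saline-LPS had 2 and LPS-LPS had 3. By replicate number, the high set held 1 library numbered 1, 0 numbered 2, 3 numbered 3 and 4 numbered 4, so the division nearly coincides with the replicate number. What a replicate number stands for is not given in the sources used here.

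Several properties of the libraries were compared between the sets. Gene counts per library ran from 25729919 to 35351672 in the high set and from 26813584 to 38571036 in the low set. The pituitary hormone Gh was at 496 CPM in LPS-LPS 1 and 43.8 CPM in saline-LPS 1. LPS-LPS 3, labelled male, held 502 CPM of Xist, which female cells transcribe, and 0 CPM of Ddx3y from the Y chromosome. Without these 3 libraries 2421 genes were called, against 2631 with all 16. Deviations of single libraries from the mean correlated with exonic length at a Spearman rho that ran from -0.37 to 0.30 in the high set and from -0.25 to 0.33 in the low set.

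With the 4 groups as covariate, 2631 of 18019 tested genes differed between the sets at an adjusted p under 0.05 (14.6%), 1166 higher (6.47%) and 1465 lower (8.13%) where Gabra6 was present. Most of these differences were small, with a median fold of 1.16 among genes called higher and 1.16 among genes called lower. Large differences lay mostly on the higher side, where 51 called genes differed by at least 2-fold against 5 on the lower side. CPM values of the sets did not overlap for 53 genes that were higher (0.294% of those tested) and 38 that were lower (0.211%). These counts depend on the model. With the replicate number as a block 1 gene was called, and with the level of Tph2, a serotonin-synthesis gene of the brainstem, as an added covariate 1 gene was called. That gene was Nrk in both, a kinase gene at 2.01 ± 1.46 CPM in the high set and 0.117 ± 0.05 CPM in the low set (SD, n = 8 each). Nrk had 1 to 6 reads in each low library and passed the filter on low counts through the high set alone. Its calls are therefore a description. Its edgeR log2 difference was 4.33 with the block (adjusted p = 0.0477) and 4.94 with Tph2 (adjusted p = 0.000606), and its adjusted p ran from 2.69e-76 to 0.0477 over 29 alternatives. With library totals alone as scaling, 1692 genes were higher and 1094 lower. Leaving out saline-LPS 3 left 1319 calls, saline-LPS 4 left 1432, LPS-saline 2 left 1438 and LPS-saline 4 left 1588. Among 95 called genes that a stated rule selects and that are reported here, 51 stayed called when any of the 16 libraries was left out.

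Granule-cell genes were higher in the high set. They share their source with Gabra6, so their values are given as a description with no p. Cbln3, a secreted cerebellin of granule cells (chromosome 14, 55878913 to 55884392), ran from 0.465 to 0.782 CPM in the low set with a median of 0.655. In the high set it ran from 3.16 to 130 CPM with a median of 38.8, so the sets did not overlap (log2 difference 6.75 ± 0.73, SE). Fat2, a giant protocadherin of parallel fibres, ran from 0.423 to 1.90 CPM in the low set and from 2.57 to 72.3 CPM in the high set (log2 5.51 ± 0.67). En2, a homeobox gene of the midbrain-hindbrain territory, ran from 1.57 to 2.97 CPM and from 3.13 to 20.1 CPM (log2 2.42 ± 0.36). All 3 label markers beside Gabra6 were therefore higher in each of the 8 high libraries than in any low one. En2 was well above 0 in the low set, whereas Gabra6 was at or near it.

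Of 19 tested members of the granule list 16 were higher by the test and 0 lower, and the median log2 difference was 0.54 against -0.0041 over all tested genes. The background for calls in the higher direction was 6.47%, and nothing is read from this count because the list shares its source with the rule. Cbln1, which bridges parallel fibres to Purkinje-cell synapses, ran from 32.9 to 41.7 CPM in the low set and from 46.9 to 143 CPM in the high set. Pax6, a transcription factor of granule precursors, ran from 14.1 to 16.0 CPM and from 17.2 to 26.9 CPM. The log2 differences were 1.34 for Cbln1 and 0.46 for Pax6. Summed over these 19 members, with Gabra6 left out, the low set spanned 556.5 to 591.8 CPM and the high set 598.9 to 1278 CPM.

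**Figure D1:**
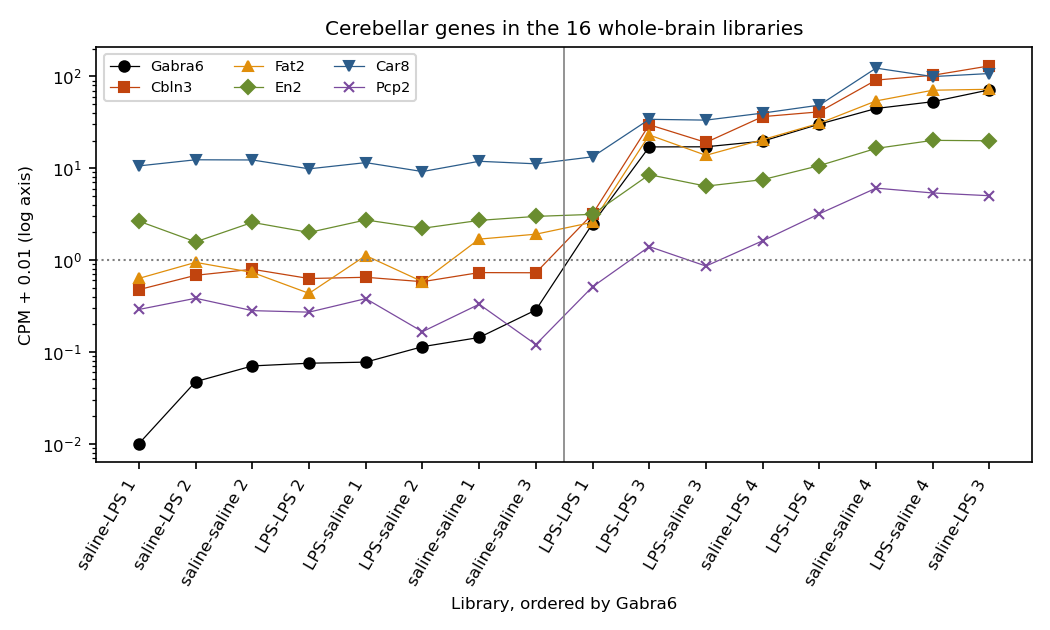
Level of 6 cerebellar genes in each of the 16 libraries, as CPM + 0.01 on a log axis, with libraries ordered by Gabra6. The dotted line marks the threshold of 1 CPM and the vertical line parts the sets of 8. LPS-LPS 1, at 2.47 CPM of Gabra6, lies between the other high libraries and the low ones for each gene plotted.

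Purkinje-cell genes followed the same division, again as a description. Pcp2, a Purkinje-cell protein, ran from 0.11 to 0.373 CPM in the low set and from 0.501 to 6.05 CPM in the high set (log2 3.74 ± 0.58). Car8, a carbonic anhydrase-related protein of Purkinje cells, ran from 9.18 to 12.3 CPM and from 13.3 to 123 CPM (log2 2.65 ± 0.37). Ppp1r17, a phosphatase inhibitor of these cells, ran from 0.993 to 1.64 CPM and from 1.66 to 17.1 CPM (log2 3.13 ± 0.42). None of the 3 overlapped between the sets. Of 19 tested Purkinje genes 10 were higher by the test (52.6%, against 6.47% of all genes) and 0 lower, and the median was 0.47. Nothing is read from this count, because the list shares its source with the rule.

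Other cerebellar cell types had smaller differences, and their counts too are a description, because these lists share their source with the rule. For interneurons and unipolar brush cells 3 of 9 tested genes were called higher (33.3%, against 6.47% of all genes, median 0.20), namely Pax2, Tfap2a and Tfap2b, transcription factors of inhibitory cerebellar lineages. Pax2 was at 0.978 ± 0.401 CPM in the high set and 0.295 ± 0.244 CPM in the low set. For Bergmann glia 4 of 8 were called higher (50%, against 6.47%, median 0.20), and Gdf10, a growth factor of these glia, ran from 11.6 to 34.6 CPM in the high set and from 9.96 to 13.2 CPM in the low set. Many genes of the Bergmann list are also expressed by astrocytes elsewhere, and its summed level overlapped between the sets (774.98 to 984.5 CPM against 734.9 to 877.2 CPM).

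The make-up of the cerebellar signal was described by subtracting the mean of the low set from each of the 8 high libraries and dividing by Gabra6. The ratio ran from 1.02 to 2.02 for Cbln3, from 0.64 to 1.31 for Fat2 and from 0.23 to 0.36 for En2. Among Purkinje genes it ran from 0.88 to 2.504 for Car8 and from 0.034 to 0.13 for Pcp2. LPS-saline 3 had the lowest ratio for En2, Pcp2 and Gdf10, and saline-saline 4 the highest for Cbln3, Car8 and Pcp2. Ratios in a single library carry no error of their own.

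Genes outside the cerebellar lists were also among the 15 largest rises. Crtam, a cell-adhesion receptor known from lymphocytes, ran from 0 to 0.160 CPM in the low set and from 0.344 to 8.16 CPM in the high set. Cnpy1, a gene of the midbrain-hindbrain boundary, ran from 0.325 to 1.54 CPM and from 3.16 to 48.2 CPM. The log2 differences were 5.67 ± 0.79 for Crtam and 5.10 ± 0.56 for Cnpy1, and neither overlapped. Dao, a D-amino acid oxidase of hindbrain astrocytes, was at 3.27 ± 2.55 against 0.457 ± 0.163 CPM, and Hes3, a transcriptional repressor, at 2.41 ± 1.44 against 0.563 ± 0.216 CPM. Both overlapped between the sets. Crtam, Cnpy1, Dao and Hes3 stayed called when any 1 library was left out. Crtam, with 0 to 6 reads in each low library, passed the filter on low counts through the high set alone. Nothing is read from its call.

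Brainstem transcripts were higher in the high set but did not follow the division library by library. Of 12 tested genes of monoamine, glycine and motor neurons 7 were higher by the test and 0 lower (58.3%, against 6.47% of all genes), and the median log2 difference was 1.04. Tph2, which makes serotonin in the raphe nuclei, was at 9.32, 10.04, 9.02, 11.1, 12.1, 6.39, 10.4 and 8.44 CPM in the high set (in the order saline-saline 4, LPS-saline 3, LPS-saline 4, saline-LPS 3, saline-LPS 4, LPS-LPS 1, LPS-LPS 3, LPS-LPS 4). In the low set it was at 8.36 CPM in saline-saline 1 and 9.75 CPM in saline-saline 3, and at 0.907 to 3.69 CPM in the other 6 libraries. A pair of low libraries therefore carried as much Tph2 as the high ones. Slc6a4, the serotonin transporter, showed the same pair, at 5.91 and 6.11 CPM, against 0.224 to 2.22 CPM in the other 6 low libraries (log2 2.25 ± 0.59, adjusted p = 0.029). Its call was lost when any of 8 libraries was left out.

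Slc6a5, the glycine transporter of inhibitory brainstem and spinal neurons, ran from 1.06 to 20.6 CPM in the high set and from 0.311 to 10.9 CPM in the low set (log2 3.01 ± 0.76, adjusted p = 0.0247, lost without any of 5 libraries). Its highest low library was again saline-saline 3, at 10.9 CPM, and its lowest high library was LPS-LPS 1, at 1.06 CPM. Slc6a2, the noradrenaline transporter of the locus coeruleus, had 0 CPM in LPS-LPS 1 and between 0.594 and 3.73 CPM in the 7 remaining high libraries. In the low set it ran from 0 to 0.719 CPM (log2 4.06 ± 0.88, adjusted p = 0.0142). Dbh, which makes noradrenaline, was at 2.91 ± 1.42 against 0.725 ± 0.263 CPM (log2 2.17 ± 0.33, adjusted p = 0.00366). Rln3, a peptide of the nucleus incertus that was looked at after the values were seen, ran from 3.72 to 4.43 CPM in saline-saline 4, LPS-saline 4, saline-LPS 3 and saline-LPS 4 and from 0.933 to 1.57 CPM in the other 12 libraries. The high set was thus not uniform in its brainstem transcripts. The 20 Hox genes of hindbrain and spinal cord were all too low to test, with a summed level of 0.031 to 3.26 CPM in the high set and 0.037 to 1.13 CPM in the low set.

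**Figure D2:**
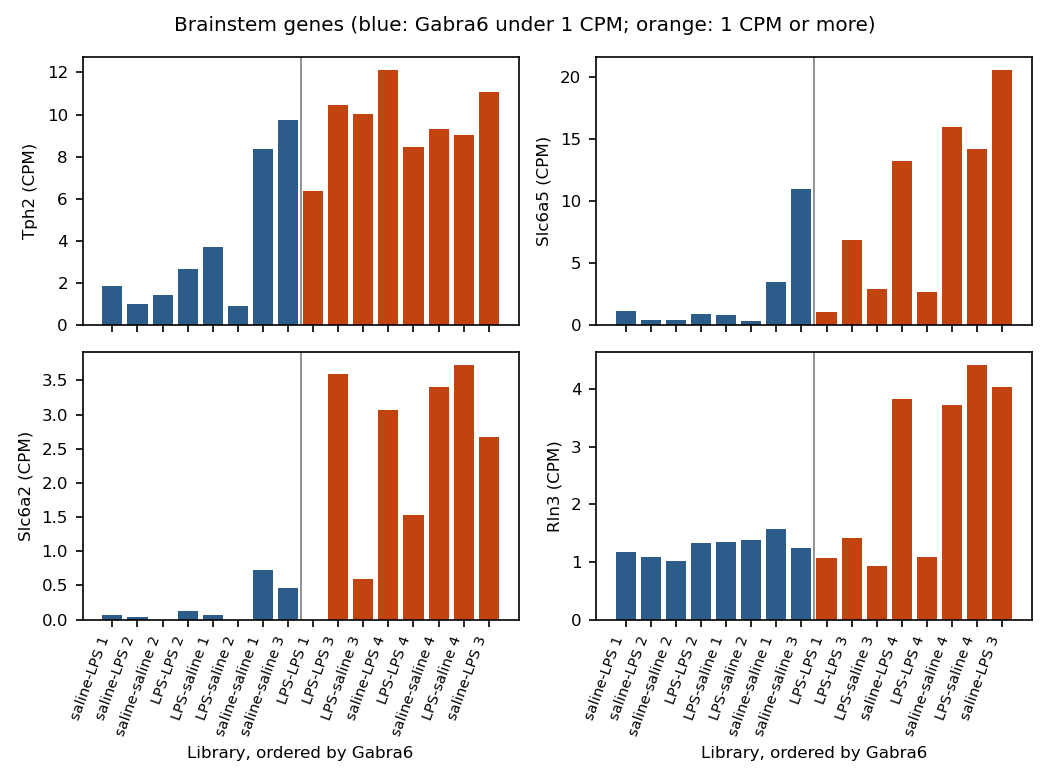
CPM of 4 brainstem genes in each of the 16 libraries, ordered by Gabra6, with blue bars for the low set and orange bars for the high set. Saline-saline 1 and 3 lie among the high libraries for Tph2, LPS-LPS 1 lies among the low ones for Slc6a5 and Slc6a2, and Rln3 is raised in 4 libraries.

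Midbrain genes were called in both directions, with 2 of 13 tested higher (15.4%, against 6.47% of all genes), 2 lower (15.4%, against 8.13%) and a median of -0.02. Slc6a3, the dopamine transporter of midbrain neurons, ran from 7.44 to 11.7 CPM in the high set and from 8.97 to 19.4 CPM in the low set (log2 -0.65 ± 0.14, adjusted p = 0.0105). Th, which makes the dopamine precursor, was at 24.0 ± 4.17 against 26.5 ± 3.61 CPM (log2 -0.25 ± 0.07, adjusted p = 0.0249). Barhl2, a homeobox gene, was higher at 4.88 ± 1.74 against 2.37 ± 0.43 CPM (log2 1.09 ± 0.20, adjusted p = 0.00441), and Pou4f2 was higher by 0.66 (adjusted p = 0.0462). The calls of Th and Pou4f2 were lost when any of 5 and any of 11 libraries was left out.

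A minority of the forebrain transcripts tested were called lower, by little. All 12 tested telencephalic transcription factors had negative log2 differences, 3 of them called (25%, against 8.13% of all genes), with a median of -0.12. Lhx2, a factor of cortical and hippocampal patterning, ran from 49.5 to 66.5 CPM in the high set and from 58.5 to 69.9 CPM in the low set (log2 -0.20 ± 0.05, adjusted p = 0.019). Its call was lost without saline-saline 4, LPS-saline 2, LPS-saline 4 or saline-LPS 4. In the cortex list 4 of 18 were called lower (22.2%) and 0 higher (median -0.07), and Cux2, of upper-layer neurons, was at 102 ± 8.68 against 118 ± 7.83 CPM (log2 -0.28 ± 0.05, adjusted p = 0.00302). The hippocampus list had 4 of 14 lower (28.6%, median -0.08), among them C1ql2 of the dentate gyrus (log2 -0.32, adjusted p = 0.0213, lost without saline-saline 4).

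Other forebrain lists held few edgeR calls, against a background of 6.47% higher and 8.13% lower. In the striatum list edgeR called 0 of 14 (2 at an unadjusted p under 0.05, and DESeq2 called 1), with a median of -0.04, and Drd2, a dopamine receptor, was at 29.5 ± 2.59 against 33.6 ± 3.45 CPM (adjusted p = 0.0529). In the thalamus list edgeR called 1 of 12 lower, Tnnt1 (8.33%, log2 -0.39, adjusted p = 0.0286, lost without any of 6 libraries). At an unadjusted p under 0.05 there were 6 thalamus genes, and DESeq2 called 4. The thalamus median was -0.27, and 11 of the 12 log2 differences were negative. Of 16 hypothalamic genes 1 was called lower (6.25%), Nkx2-1, a factor of the ventral forebrain (log2 -0.43 ± 0.11, adjusted p = 0.016). In the olfactory bulb list edgeR and DESeq2 called 0 of 9, with 1 at an unadjusted p under 0.05. In whole-tissue RNA, fewer cells of a type and less RNA per cell cannot be told apart.

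**Figure D3:**
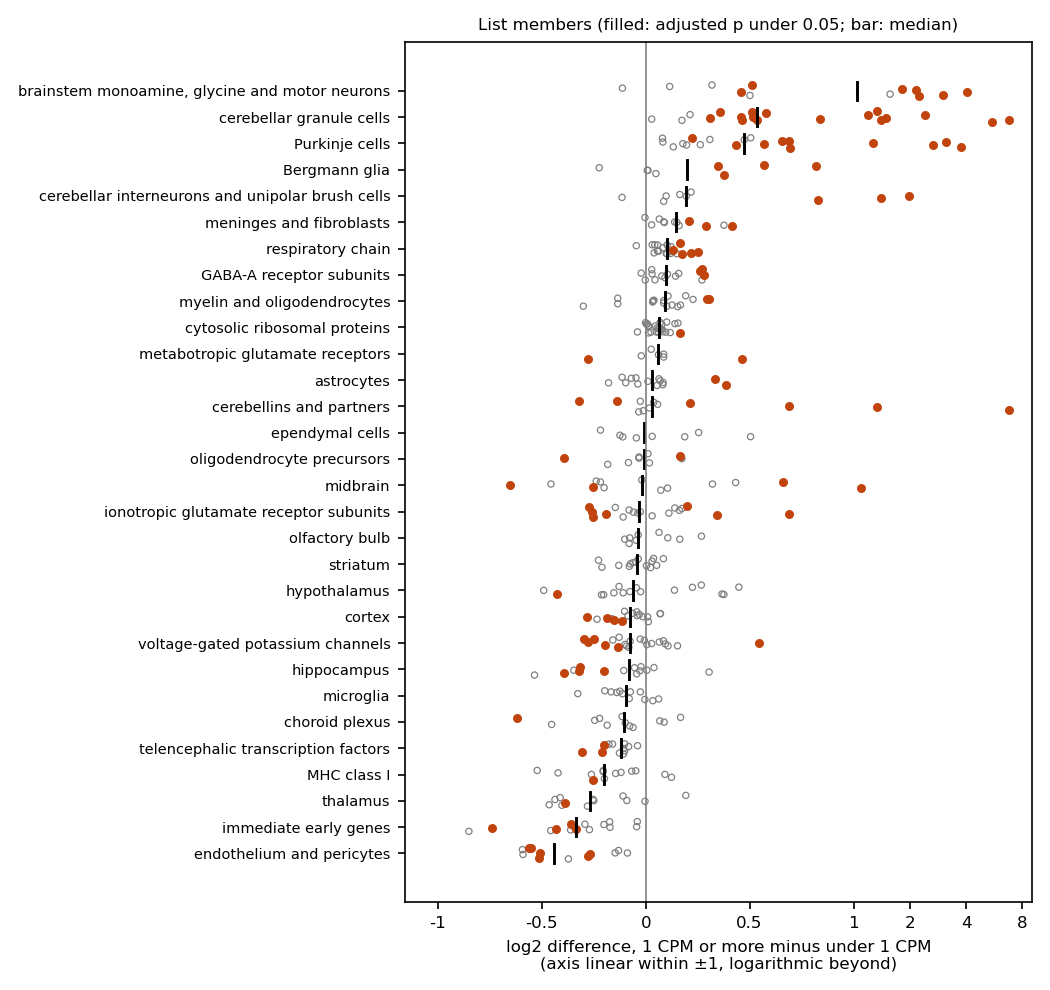
Log2 difference of tested list members between the sets, pituitary left out, with 1 row per list ordered by its median (black bar), filled points for genes with adjusted p under 0.05 and an axis that is linear within 1 of 0 and logarithmic beyond. Brainstem and cerebellar lists lie at the top, with medians of 1.04 and 0.54 for brainstem and granule genes, and the endothelial list at the bottom, with a median of -0.44.

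Several vascular genes were lower in the high set. All 12 tested endothelial and pericyte genes had negative log2 differences, and 6 were called lower (50%, against 8.13% of all genes), with a median of -0.44. Vwf, a clotting protein of endothelium, ran from 10.9 to 21.7 CPM in the high set and from 18.0 to 29.9 CPM in the low set (log2 -0.73 ± 0.16, adjusted p = 0.0142). Ly6c1, of brain endothelium, was at 19.6 ± 2.28 against 26.9 ± 2.77 CPM (log2 -0.51 ± 0.08, adjusted p = 0.00291). Gkn3, known from arterial endothelium, was at 0.757 to 1.90 CPM in the high set and 2.02 to 3.17 CPM in the low set, with no overlap (log2 -0.83 ± 0.16, adjusted p = 0.00369). Robo4 and Flt4, receptors of endothelium, were lower at -0.74 ± 0.17 and -0.74 ± 0.19 (adjusted p = 0.0106 and 0.0165). Acta2, the actin of smooth muscle, was lower at 5.01 ± 1.15 against 8.55 ± 2.33 CPM (log2 -0.76 ± 0.20, adjusted p = 0.0215, lost without saline-LPS 3 or saline-LPS 4). Of these named genes only Ly6c1 is in the list of 12. Vwf, Gkn3, Robo4, Flt4 and Acta2 are outside it and were named for the size of their falls. Within the list the largest fall was that of Kdr, at -0.59, which was not called (adjusted p = 0.0532). Tnfrsf25, a death-domain receptor, is also outside the list. Its fall was the largest among called genes with a mean of at least 1 CPM. The log2 difference of Tnfrsf25 was -1.06 ± 0.28 (adjusted p = 0.0288, lost without any of 7 libraries).

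Vascular medians depended strongly on the model. The endothelial median was -0.44 with treatment groups alone, -0.10 with Tph2 level added and -0.05 with the replicate number added. Where replicate number and Gabra6 part, values were close: Vwf was at 18.0 CPM in saline-saline 3 (low set) and 20.8 CPM in saline-saline 4 (high set), and at 21.7 CPM in LPS-LPS 1 (high) and 24.4 CPM in LPS-LPS 2 (low). Pecam1, an endothelial adhesion molecule, was at 13.0 and 14.6 CPM in the first pair and 15.2 and 13.8 CPM in the second. Within the sets Vwf was less close, at 27.6 and 25.9 CPM in saline-saline 1 and 2 (low). In LPS-LPS 3 and 4 (high) it was at 15.9 and 14.2 CPM. Whether Gabra6 or the replicate number accompanies the vascular level cannot be told apart in most libraries.

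The granule list had a median of 0.54 with groups alone, 0.61 with Tph2 and 0.55 with the block. The Purkinje list was at 0.47, 0.39 and 0.26. Both lists share their source with the rule, so nothing is read from how their medians held. With the block the log2 difference went from 6.75 to 5.07 for Cbln3, from 5.51 to 3.415 for Fat2 and from 2.42 to 1.48 for En2. In the order groups, Tph2 and block, the brainstem list was at 1.04, 0.19 and 0.36, and immediate early genes at -0.34, -0.37 and -0.24. Telencephalic transcription factors were at -0.12, -0.08 and -0.10. Tph2 is itself a member of the brainstem list, so the smaller brainstem median with Tph2 added follows from the model, and nothing is read from it.

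**Figure D4:**
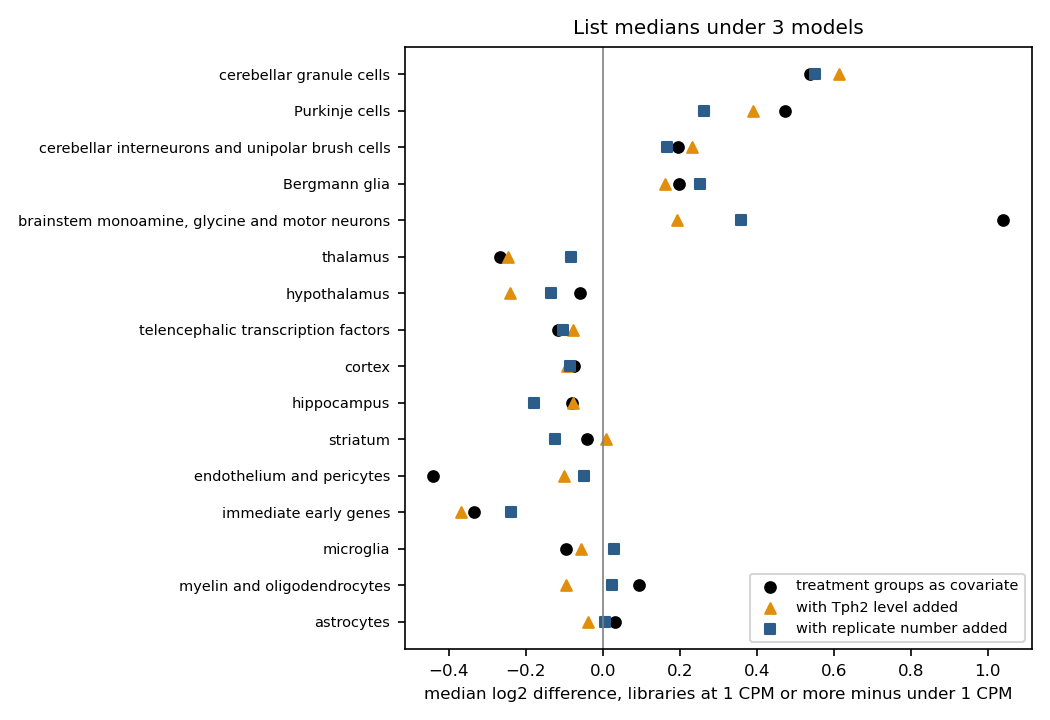
Median log2 difference between the sets for 16 lists under 3 models, with circles for treatment groups alone, triangles with Tph2 level added and squares with replicate number added. Granule medians, of a list that shares its source with the rule, lie between 0.54 and 0.61. The endothelial median moves from -0.44 to -0.10 and -0.05.

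Of the immediate early genes, which neurons transcribe within minutes of activity, 4 of 15 tested were called lower (26.7%, against 8.13% of all genes). All 15 had negative differences, with a median of -0.34. The groups were not alike in this. The list's centred mean log2 level was -0.58 in saline-saline 4 against 0.04 to 0.23 in the low libraries of that group, and -0.08 and -0.41 in LPS-saline 3 and 4 against 0.29 and 0.49. In saline-LPS it was at 0.01 and -0.02 in the high libraries and 0.05 and -0.04 in the low ones, and in LPS-LPS the low library, at -0.15, lay below the 3 high ones, at -0.02, -0.11 and 0.07. Egr1 was at 245.4 to 352.7 CPM in the high set and 349.6 to 434.3 CPM in the low set (log2 -0.43 ± 0.08, adjusted p = 0.00673). Arc, a synaptic activity gene, ran from 99.7 to 226 CPM in the high set and from 172 to 365 CPM in the low set (log2 -0.74 ± 0.22, adjusted p = 0.0452). Only LPS-LPS 1, at 352.7 CPM, reached the range of the low set for Egr1. The call of Arc was lost when any of 13 libraries was left out, and those of Fosb and Egr4 when any of 7 and any of 13 was.

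Receptor subunits were called in both directions. Among GABA-A receptor subunits 3 of 14 tested were called higher (21.4%, against 6.47% of all genes) and 0 lower, and the list median of 0.10 was -0.02 with the replicate block. Gabrb2, a beta subunit of synaptic receptors, was at 97.1 ± 10.7 against 83.2 ± 11.5 CPM (log2 0.26 ± 0.07, adjusted p = 0.0284), and its call was lost without any of 6 libraries. Among ionotropic glutamate receptor subunits 3 of 18 were higher (16.7%) and 4 lower (22.2%, against 8.13% of all genes). Gria4, an AMPA receptor subunit, was higher by 0.34 ± 0.06 (adjusted p = 0.00376). Grin1, the obligatory NMDA receptor subunit, was at 462 ± 49.5 against 518 ± 36.3 CPM (log2 -0.26 ± 0.05, adjusted p = 0.00369), and Grin2d and Grik5 were lower at -0.27 and -0.25 (adjusted p = 0.00396 and 0.00413).

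Of the metabotropic glutamate receptors, Grm4, found on parallel fibre terminals, was higher by 0.46 (lost without any of 5 libraries) and Grm2 was lower at -0.28 ± 0.06 (adjusted p = 0.00885). Among voltage-gated potassium channels 5 of 22 were lower (22.7%, against 8.13% of all genes) and 1 higher (4.55%, against 6.47%), with a median of -0.08. Kcnd1, a channel of transient outward currents, was at 12.5 ± 0.93 against 14.0 ± 0.755 CPM (log2 -0.25 ± 0.05, adjusted p = 0.00611). Kcnh3, a forebrain channel, was at -0.30 ± 0.05 (adjusted p = 0.00369). The cerebellins and their partners had 4 of 12 higher (33.3%) and 2 lower (16.7%), and share members with the granule list.

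Glial lists had few calls, against a background of 6.47% higher and 8.13% lower. Among microglial genes edgeR called 0 of 12 (3 at an unadjusted p under 0.05, and DESeq2 called 1), with a median of -0.10, and Csf1r, their survival receptor, was at 69.8 ± 11.2 against 80.1 ± 14.5 CPM (adjusted p = 0.0749). Astrocyte genes had 2 of 14 higher (14.3%, median 0.03), S100b at 132 ± 18.9 against 103 ± 8.72 CPM (log2 0.39 ± 0.07, adjusted p = 0.00522) and the water channel Aqp4 at 172 ± 16.5 against 139 ± 16.1 CPM (log2 0.33 ± 0.07, adjusted p = 0.00538). Myelin genes had 2 of 18 higher (11.1%, median 0.09), among them Ugt8a, which makes myelin galactolipids (log2 0.30 ± 0.09, adjusted p = 0.0482, lost without any of 10 libraries). Oligodendrocyte precursor genes had 1 of 10 higher, Lhfpl3 (lost without any of 11 libraries), and 1 lower, Cspg4 (lost without any of 5).

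Respiratory-chain genes had 5 of 20 higher (25%, against 6.47% of all genes) and a median of 0.10, with Cycs, cytochrome c, at 165 ± 11.8 against 140 ± 9.32 CPM (log2 0.22 ± 0.05, adjusted p = 0.00799). Ribosomal proteins had 1 of 25 higher (4%), Rps9 (lost without LPS-saline 2, LPS-saline 4 or saline-LPS 3), and a median of 0.06. Meningeal genes had 3 of 12 higher (25%), Aldh1a2, Igf2 and Ogn, with calls lost without any of 4, 10 and 13 libraries. The choroid plexus list had 1 of 12 lower (8.33%, against 8.13% of all genes), F5 (adjusted p = 0.0452, lost without any of 11 libraries). For 8 ependymal genes edgeR and DESeq2 called 0, with 1 at an unadjusted p under 0.05, and for 3 pituitary genes 0 were called by either or at that p. Of 13 MHC class I genes 1, H2-K1, was called lower (7.69%, log2 -0.25 ± 0.08, adjusted p = 0.0347) although its raw mean was 50.0 CPM in the high set and 48.7 CPM in the low set. Without the treatment covariate its log2 difference was 0.02 and with the replicate block 0.07, so the sign rests on the model, and counts of class I genes are uncertain where near-identical copies share reads.

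The division was then fitted in mice that share no library. Among mice of saline-injected dams (3 high and 5 low libraries) 259 of 18575 genes were called (1.39%), 156 higher (0.84%) and 103 lower (0.555%). Among mice of LPS-injected dams (5 high and 3 low) edgeR called 1 of 18408 (0.00543%), Nrk, with 2573 genes at an unadjusted p under 0.05, and DESeq2 called 88. Without LPS-LPS 1, the library nearest the threshold, 785 genes were called in the latter mice, with 35 without LPS-LPS 2, 3 without LPS-saline 3 and 0 without LPS-saline 1. Calls in the former moved with each library: 45, 40, 1069 and 1032 without saline-saline 1 to 4, and 56, 51, 39 and 120 without saline-LPS 1 to 4. The block left 26. Of the genes called in the former and tested in both, 152 of 152 higher and 103 of 103 lower had the same sign in the latter, where 71.8% of all 18141 genes did. At an unadjusted p under 0.05, 65.8% of the higher and 80.6% of the lower genes differed in the latter mice, against 13.2% of all. The higher genes include members of the cerebellar lists, which share their source with the rule. Without those members 133 of 133 higher genes had the same sign, and 64.7% differed at that p. Replicate numbers divide in nearly the same way in the former and the latter mice, so this does not part Gabra6 from the number.

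Median differences were larger in mice of saline-injected dams, 0.58 against 0.30 for genes called higher there and -0.33 against -0.20 for those called lower. Those genes were chosen by their values in the first of these. A test of the difference between the mice called 0 of 18019 genes in edgeR (583 at an unadjusted p under 0.05) and 0 in DESeq2. On simulated counts this test found 92% of genes set to differ by 1 log2 unit and 28% at 0.5. Its 0 calls therefore do not show that the mice were alike. The smallest p belonged to Pmch, Casp12 and AK157302. Pmch, a hypothalamic peptide, had log2 differences of -0.45 and 1.22.

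**Figure D5:**
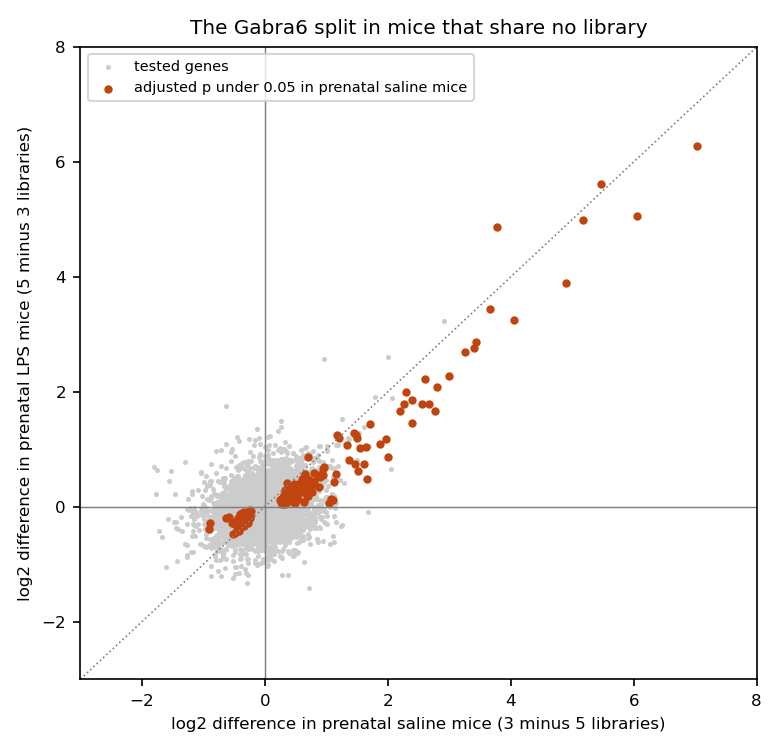
Log2 difference between high and low libraries for each gene tested in both, in mice of saline-injected dams (x axis) against mice of LPS-injected dams (y axis), with the 255 genes called in the former in orange and the dotted line marking equal values. All called genes lie in the quadrants of equal sign.

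Within the 8 high libraries the level of Gabra6 above the threshold was not used to place them. With the dam's injection as covariate, 27 of 16561 genes followed Gabra6 (0.163%), 26 upward (0.157%) and 1 downward (0.00604%), and 26 of the 27 were also called between the sets. Crtam rose by 1.09 ± 0.09 log2 units for each doubling of Gabra6 (adjusted p = 6.33e-06) and Cnpy1 by 0.85 (adjusted p = 0.000226). Arhgef33, which encodes an exchange factor, rose by 0.86 (adjusted p = 0.000143). Whether Crtam, Cnpy1 and Arhgef33 share their source with Gabra6 was not tested, and nothing is read from their p-values. Genes of the cerebellar lists share their source with Gabra6, and their slopes are given with no p: 1.10 for Cbln3, 1.06 for Fat2, 0.74 for Ppp1r17 and 0.63 for En2. Without LPS-LPS 1 the slopes of Cbln3 and Fat2 were 1.12 and 1.09.

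Of the genes lower in the high set, edgeR called 1 along this slope. Fn1, fibronectin of vessels and meninges, fell by 0.12 for each doubling (adjusted p = 0.0158), and lost its call without LPS-saline 4 or LPS-LPS 1. Vwf had a slope of -0.13 (adjusted p = 0.715) and Egr1 of -0.11 (adjusted p = 0.339). The endothelial list had a median slope of -0.05 with 11 of 12 negative, and the brainstem list 0.10 with 9 of 10 positive and 0 called. Calls ranged from 7 without LPS-saline 4 to 61 without LPS-LPS 1, with 15 without saline-LPS 3 and 12 without saline-LPS 4.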

How the data were processed

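RNA was measured in 16 whole-brain libraries, 1 per mouse. Whole-number counts of reads for each Ensembl gene were deposited. STAR 2.5.2b, HTSeq 0.11.2 and the GRCm38 build are named in the submitters' processing notes. Neither the strand setting nor the annotation release is given in the sources used here, so reads of overlapping genes cannot be told apart. Besides 49671 genes a file has 5 entries that name no gene, and these stayed out of totals and tests (reads without a gene were 8.37 to 11.05% of all). Symbols and coordinates came from GENCODE release M21 (49412 identifiers matched, 259 not).

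CPM is a count over the library's gene total, scaled as usual. 1 read stood for 0.0259 to 0.0389 CPM, and precision from counting covers counting error only. Differences between libraries with Gabra6 at 1 CPM or more and under 1 CPM were fitted with edgeR 4.0.16 in R 4.3.3 (filterByExpr, TMM scaling, quasi-likelihood test, robust), with the 4 treatment groups as covariate and Gabra6 left out. P-values are two-sided and were adjusted over all tested genes by Benjamini-Hochberg (threshold 0.05). Alternatives used DESeq2 1.42.0, other scalings, filters, covariates and left-out libraries. The Tph2 covariate was chosen after seeing the data. On simulated counts the main comparison found 100% of the genes set to differ by 1 log2 unit and 92% at 0.5, and 1.03% of its calls were false. In the same order the values were 99%, 73% and 6.52% for mice of saline-injected dams. They were 99%, 72% and 1.72% for mice of LPS-injected dams. For the slope, genes were set to change by 1 or 0.5 log2 units for each doubling of Gabra6. In the same order its values were 88%, 97% and 5.13%, and slopes under 0.5 were not simulated. For the difference between the mice 0.83% of calls were false. The share of false calls in the measured libraries was not tested.

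The members and the 32 gene lists were chosen with earlier results of these data known. Named genes are the label markers, the 15 largest rises and 15 largest falls among called genes with a mean of at least 1 CPM, up to 4 members of each list by p, and up to 10 genes per direction for the slope. Predicted genes and pseudogenes are counted and not named, and the results of some genes that the rule takes are not reported here.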

Additional observations from a re-analysis of the deposited data

Results flagged for a closer look

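Within each set of 8 libraries, 82 sets of values were searched for a library that stood apart from the other 7 by Dixon's criterion at 95%, and 8 stood apart. Chance gives about 1 in 20. Slc6a5, the glycine transporter, was at 10.93 CPM in saline-saline 3, the highest of the low set, with the next at 3.436 CPM. Slc6a3, the dopamine transporter, was at 11.74 CPM in LPS-saline 3, the highest of the high set, with the next at 9.405 CPM. The other 6 were centred mean log2 levels of lists. Granule genes in saline-saline 1 were at -0.4414, the highest of the low set, with the next at -0.539. Striatal genes in LPS-saline 1 were lowest of the low set at -0.2694. Pituitary genes were highest at 4.601 in LPS-LPS 1 in the high set and at 2.312 in saline-LPS 1 in the low set, the libraries with Gh at 496 and 43.8 CPM. Choroid plexus genes were highest in saline-LPS 3 at 0.6565, and GABA-A receptor subunits lowest in LPS-LPS 1 at -0.1087.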

How the results depend on the processing

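Between the sets, 2631 genes were called. Scaling by size factors (2624), library totals (2786) or upper quartile (2623), and DESeq2 (3277), kept the count within 1.5 times of it. Each library's correlation with exonic length as an added covariate gave 1788 calls, 1691 of them shared with the main fit. Without the treatment covariate 2239 were called, 1739 of them shared. A division at the median of Cbln3 makes the same sets of 8, so its 2631 calls repeat the same fit and check nothing. Log2 Gabra6 as a continuous term called 4205 and Tph2 as covariate called 1. Leaving out 1 library gave 1319 to 3378 calls. Deviations from group means of 24 same-numbered pairs correlated at 0.011 to 0.58, 22 of them over 0.1. Differently numbered pairs from different groups correlated at -0.53 to 0.53. Of 16 libraries, 8 were closest to one of their number. The main model left the replicate number out, and what libraries of 1 number share was not tested. The replicate block left 1 call between the sets, 26 in mice of saline-injected dams and 53 for the slope.

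In mice of saline-injected dams (259 calls) no filter on low counts gave 1713, a mean of at least 1 CPM 103, DESeq2 1245 and continuous Gabra6 1157, and leaving out 1 library 39 to 1069. In mice of LPS-injected dams (1 call) these gave 435, 0, 88 and 842, leaving out libraries with Gabra6 from 1 to 10 CPM gave 785, and leaving out 1 library 0 to 785. For the difference between them (0 calls) no filter gave 23 and leaving out 1 library 0 to 1. For the slope (27 calls) no filter gave 201, DESeq2 75 and no treatment covariate 89, and leaving out 1 library 7 to 61. Where the construction (fewer samples or genes) does not show the cause, the cause was not tested.

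Among named genes called in either fit, signs reversed under the block for Tm6sf2 (0.0825), Adcy4 (0.0265), Ndufs1 (-0.0204), Uqcrfs1 (-0.0645), H2-K1 (0.0711) and Fn1 (0.0736), and without the treatment covariate for H2-K1 (0.0222). Under the block 9 named genes called in neither fit also changed sign, among them C1qa (-0.12 to 0.04), Tmem119 (-0.20 to 0.04) and Gabrg1 (0.27 to -0.06), as did 7 of 31 list medians, among them MHC class I (-0.20 to 0.07) and GABA-A subunits (0.10 to -0.02). Of 95 named calls, 44 were lost when at least 1 library was left out, 37 of them without saline-LPS 3 and 36 without LPS-saline 2. With at most 10 Gabra6 counts, libraries in the low set cannot be ordered by it at this depth.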
